A study of Mus musculus with 12 samples.

Results

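The IFIT and IFITM families are 2 groups of interferon-stimulated genes. The 7 members were Ifit1, Ifit2, Ifit3, Ifit3b, Ifitm1, Ifitm2 and Ifitm3, found by gene symbol among 15002 genes. The set was chosen by the rise of Ifit1 after Nostrill siRNA in cells without IFN-γ, so that contrast is given below only as a description. RNA was measured in IEC4.1 cells, a wild-type mouse line labelled as intestinal epithelial, with 3 libraries for each of 4 conditions. The lncRNA Nostrill was targeted by 3 pooled siRNAs (siR_Nostrill), scrambled siRNA served as control (siR_Ctrl), and either was used with or without IFN-γ. The methods give 1 ng/ml IFN-γ for 4 h after transfection, while the labels give 24 h for every library. All 12 libraries came from one cell line, described in the methods as biological triplicates. Nostrill was not analysed here, so the extent of the knockdown was not checked in these libraries.

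IFIT proteins are built of tetratricopeptide repeats. Ifit1 binds viral RNA whose cap lacks ribose methylation and blocks its translation, and the other IFIT proteins bind RNA or other IFIT proteins. IFITM proteins are small membrane proteins that hinder the fusion of enveloped viruses with endosomal or plasma membranes. IFN-γ acts mainly through gamma-activated sites (GAS), while the ISGF3 complex, of which IRF9 is the DNA-binding part, and the IRF1 protein bind the interferon-stimulated response element (ISRE). Both families are textbook targets of the ISRE in type I interferon responses.

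The labelled cell type was checked against marker genes. Of 9 intestinal epithelial markers, 5 were in the tables, and their summed FPKM (fragments scaled by transcript length and by mapped reads) was between 1.23 and 3.05 in all 12 libraries. Krt19 had 0.91 to 2.76 FPKM, while Krt8, Krt18, Vil1 and Cdx2 did not pass 0.28 FPKM. Epcam and Cdh1 were not analysed here. By contrast, 8 mesenchymal markers summed to between 2.59e+03 and 3.03e+03 FPKM, with Vim from 1.54e+03 to 2.06e+03 and Col1a1 from 176 to 315 FPKM, although Thy1 did not pass 0.11. Immune markers (3 of 6 in the tables) stayed at or under a sum of 0.52 FPKM and endothelial markers (2 of 3) at or under 0.18. The measured epithelial markers were therefore near 0 in every group, apart from low Krt19. The cells are called here by the name of their line. From 17824306 to 19093204 reads were counted on genes per library.

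The 4 IFIT members lie within 99.5 kb of chromosome 19, and the 3 IFITM members within 55.9 kb of chromosome 7 (RefSeq genes, GRCm38.p6). Ifit2 spans chr19:34550550-34576534, Ifit3 chr19:34583119-34588982, Ifit3b chr19:34607530-34613403 and Ifit1 chr19:34640889-34650009. Ifitm2 spans chr7:140954837-140959686, Ifitm1 chr7:140967429-140969827 and Ifitm3 chr7:141009590-141010744. The promoters of the 5 members that hold an ISRE core are shown. Whether these cores bear on the responses to IFN-γ below was not tested. Each runs 5′ to 3′ from 250 bases before the RefSeq start used for the window to 30 bases after it (GRCm38.p6). For Ifit1 and Ifitm3 this start is the outer end of the gene span. For Ifit3 (34583529), Ifit3b (34607957) and Ifitm2 (140955961) it lies inside the span, and the bases before the outer end were not searched. Capitals mark the ISRE core, here GAAA, any 2 bases, GAAA on either strand.
Ifit1 (chr19:34640639-34640918, plus strand): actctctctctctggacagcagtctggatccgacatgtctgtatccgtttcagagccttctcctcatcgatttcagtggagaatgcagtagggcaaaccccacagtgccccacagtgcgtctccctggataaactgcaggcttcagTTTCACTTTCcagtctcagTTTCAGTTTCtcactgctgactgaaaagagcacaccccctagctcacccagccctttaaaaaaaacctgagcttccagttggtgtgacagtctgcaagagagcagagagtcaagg
Ifit3 (chr19:34583279-34583558, plus strand): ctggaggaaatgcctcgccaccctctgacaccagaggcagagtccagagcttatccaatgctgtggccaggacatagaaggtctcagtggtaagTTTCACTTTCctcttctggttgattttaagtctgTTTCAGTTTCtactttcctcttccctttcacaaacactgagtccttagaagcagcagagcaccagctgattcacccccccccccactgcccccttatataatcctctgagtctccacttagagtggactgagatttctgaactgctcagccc
Ifit3b (chr19:34607707-34607986, plus strand): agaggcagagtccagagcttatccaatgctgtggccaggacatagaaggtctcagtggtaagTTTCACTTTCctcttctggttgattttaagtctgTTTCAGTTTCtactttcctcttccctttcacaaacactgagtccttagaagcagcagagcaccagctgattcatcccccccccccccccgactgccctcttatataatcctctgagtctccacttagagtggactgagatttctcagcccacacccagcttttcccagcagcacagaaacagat
Ifitm2 (chr7:140955932-140956211, minus strand): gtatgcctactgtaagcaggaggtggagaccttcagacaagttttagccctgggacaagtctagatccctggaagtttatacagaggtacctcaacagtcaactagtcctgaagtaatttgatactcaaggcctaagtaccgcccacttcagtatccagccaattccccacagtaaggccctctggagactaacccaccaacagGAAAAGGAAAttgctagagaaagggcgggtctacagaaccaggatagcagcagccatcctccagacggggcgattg
Ifitm3 (chr7:141010715-141010994, minus strand): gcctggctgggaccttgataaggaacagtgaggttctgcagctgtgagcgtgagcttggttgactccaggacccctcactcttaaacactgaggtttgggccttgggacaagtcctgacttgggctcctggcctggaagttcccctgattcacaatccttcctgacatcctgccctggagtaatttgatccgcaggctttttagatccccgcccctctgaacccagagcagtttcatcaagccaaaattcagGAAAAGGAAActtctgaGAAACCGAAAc

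Ifit1, Ifit3 and Ifit3b each held 2 ISRE cores before the start, and in all 3 genes the first read TTTCACTTTC and the second TTTCAGTTTC. They began at positions -104 and -85 in Ifit1, -156 and -122 in Ifit3 and -188 and -154 in Ifit3b, counted back from the start. Between the promoter windows of Ifit3 and Ifit3b, 259 of 260 aligned bases were identical (99.6%). Gaps and unaligned ends were left out of this share, and the 2 printed sequences also differ by gaps. Ifitm2 held 1 core, GAAAAGGAAA, at -46. Ifitm3 held the same letters at position 3 after the start and a second core, GAAACCGAAA, at 20. Neither window of Ifit2 (2 starts were used, 34550694 and 34551088) nor the window of Ifitm1 (start 140968076) held an ISRE core. These starts also lie inside the gene spans, so sequence further upstream was not covered. Across all 32851 promoter windows of 300 bases, 3.44% held at least 1 ISRE core and 0.225% held at least 2. The GAS core (TTC, any 3 bases, GAA, which reads the same on both strands) was found in 8.3% of windows. Among the members it was found in Ifitm3, as TTCTGAGAA from position 14 to 22 and sharing 3 bases with the second ISRE core, and in the first window of Ifit2, as TTCCTGGAA at -241. These matches are letters in a window and not measured binding sites.

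**Figure D1:**
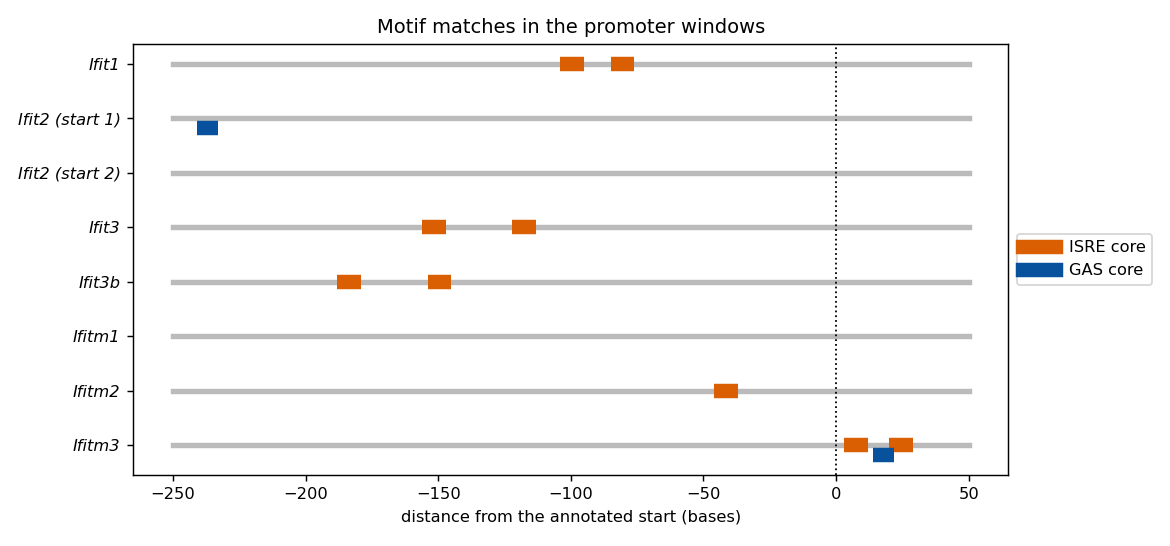
Position of the ISRE core (orange) and GAS core (blue) in each promoter window, with the distance from the RefSeq start in bases on the horizontal axis and the start as a dotted line. Ifit1, Ifit3 and Ifit3b hold 2 ISRE cores before the start, Ifitm3 holds 2 after it, and Ifit2 and Ifitm1 hold none.

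The levels of the members spanned a wide range before any treatment. In siR_Ctrl cells Ifitm2 had 305 ± 49 FPKM (mean ± SD, n = 3) and Ifitm3 301 ± 69.7, and the values of these 2 genes overlapped. Ifit2 followed at 7.55 ± 1.15, Ifit1 at 2.87 ± 0.872 and Ifit3 at 1.6, each without overlap with its neighbours in the order. Ifitm1 (0.317 ± 0.176) and Ifit3b (0.257) were lowest and overlapped. The IFITM pair was thus the abundant part of the set, with Ifitm3 at 39.8 times the mean FPKM of Ifit2. Ifitm1 had between 1 and 9 reads in each of the 12 libraries and did not pass the filter on low counts, so 6 of the 7 members were tested.

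**Figure D2:**
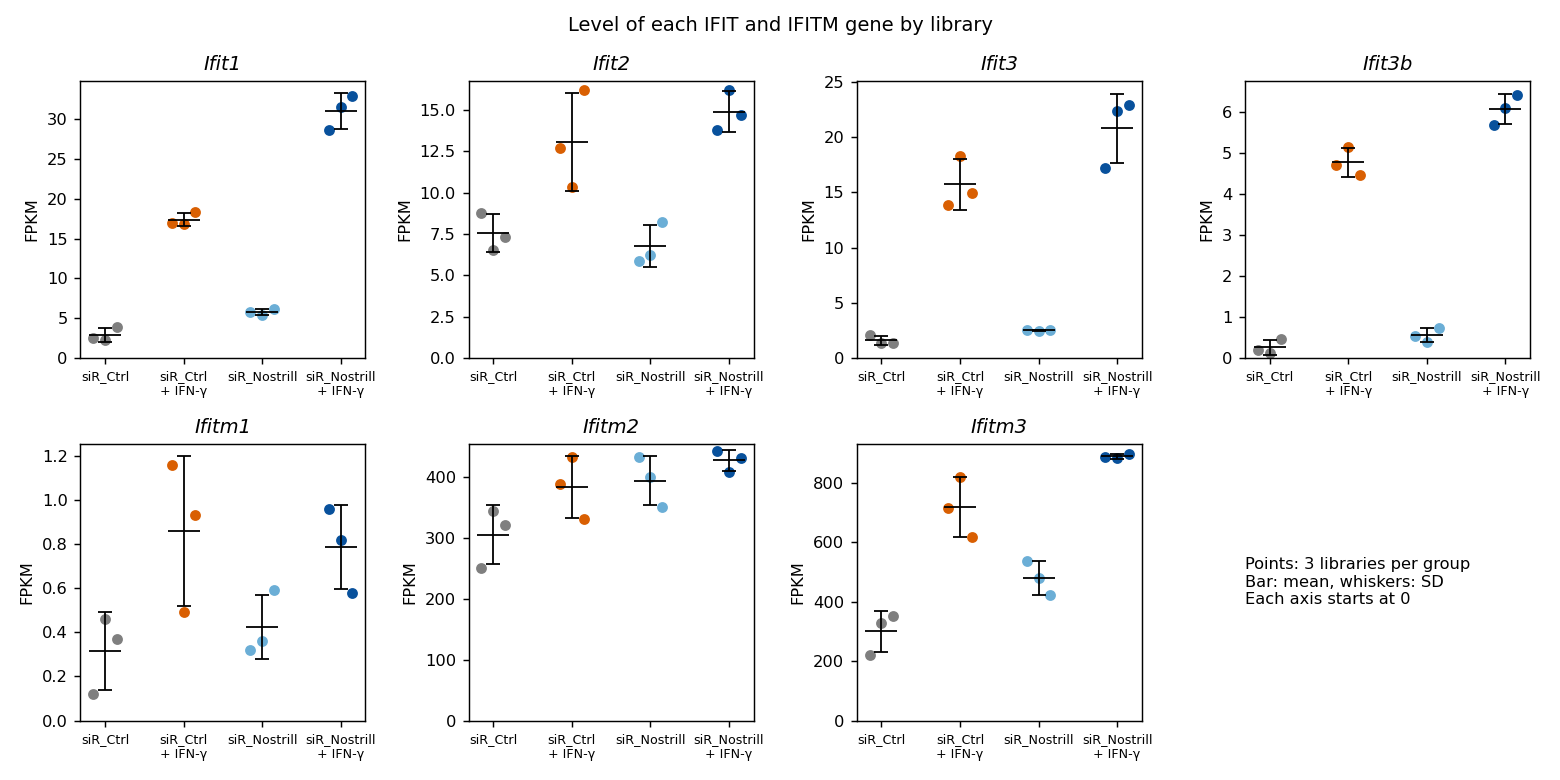
FPKM of each of the 7 members (vertical axis, from 0) in the 3 libraries of each condition (points), with the mean (bar) and SD (whiskers). Ifit1, Ifit3 and Ifit3b separate into low values without IFN-γ and high values with it, and Ifitm2 and Ifitm3 are the abundant members.

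IFN-γ raised 5 of the 6 tested members in siR_Ctrl cells (edgeR quasi-likelihood test over 11900 genes, Benjamini-Hochberg adjusted p under 0.05). The same test called 4.71% of all genes higher in this comparison. The 6 members had a median log2 fold change of 1.99, against -0.0085 over all genes tested. The siR_Ctrl libraries also entered the contrast that chose Ifit1, and they are shared between this comparison and that one. Such a choice favours low Ifit1 values in these libraries. The fold, interval and p-value of Ifit1 below therefore lean towards a larger rise. In bulk RNA, a change in fewer cells and a smaller change in each cell cannot be told apart.

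Ifit1, the sensor of foreign caps, had 2.5, 2.25 and 3.87 FPKM in siR_Ctrl cells and 16.98, 16.84 and 18.38 with IFN-γ. All libraries with IFN-γ were above all without it. The increase was 6.36-fold (95% interval 4.93 to 8.19, edgeR adjusted p = 5.95e-07). Ifit3, a partner that stabilises Ifit1 on RNA in human cells, had 2.07, 1.38 and 1.36 FPKM at rest and 13.88, 18.33 and 14.98 with IFN-γ. It rose 10.6-fold (7.74 to 14.4, edgeR adjusted p = 4.27e-07). Its near copy Ifit3b had 0.19, 0.12 and 0.46 FPKM at rest and 4.7, 5.15 and 4.46 with IFN-γ. Ifit3b rose 19.2-fold (12.1 to 30.5, edgeR adjusted p = 1.99e-06), a log2 fold change of 4.27, which was 4.99 without siR_Ctrl replicate 3. By limma on log2(FPKM + 1), a scale that understates changes of low genes, the log2 rise was 2.21 for Ifit3b, 2.27 for Ifit1 and 2.69 for Ifit3, so the order of these genes differed between the fits. The groups of these genes did not overlap. The share of all genes with such separation was not computed for either IFN-γ comparison, so it is given as a description.

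Ifit2, an IFIT protein linked to RNA binding and cell death, started highest of the IFIT genes and rose least. Its libraries had 8.79, 6.53 and 7.34 FPKM at rest and 12.7, 10.32 and 16.21 with IFN-γ, which did not overlap in FPKM but did in TPM (transcript shares scaled to a fixed total). The increase was 1.79-fold (1.43 to 2.25, edgeR adjusted p = 0.00476), and it did not pass when only the 6 libraries compared were fitted (edgeR adjusted p = 0.0525). Because of this unequal rise the make-up of the IFIT transcripts changed. Ifit2 made up 56.3% to 64.9% of the summed IFIT FPKM in siR_Ctrl cells and 20.4% to 30% with IFN-γ. Ifit1 went from 18.5% to 29.7% of the sum up to 33.3% to 35.2%. With IFN-γ, Ifit1 (17.4 ± 0.852 FPKM) and Ifit3 (15.7) overlapped, as did Ifit3 and Ifit2 (13.1 ± 2.96).

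Among the IFITM genes, Ifitm3, a restriction factor of late endosomes, had 220.95, 329.91 and 350.75 FPKM at rest and 714.84, 821.06 and 619.61 with IFN-γ. All libraries with IFN-γ were higher, by 2.49-fold (1.79 to 3.47, edgeR adjusted p = 0.00265). Its neighbour Ifitm2 had 250.03, 344.04 and 320.99 FPKM at rest and 387.92, 432.17 and 330.02 with IFN-γ. These values overlapped, and the ratio of 1.31 (0.992 to 1.73) did not pass the test (edgeR adjusted p = 0.364). The ratio of Ifitm3 to Ifitm2 FPKM within a library was between 0.884 and 1.09 in siR_Ctrl cells and between 1.84 and 1.9 with IFN-γ. Ifitm1 had 8 reads in all 3 siR_Ctrl libraries together and 21 with IFN-γ. Without a filter on low counts its difference did not pass (edgeR adjusted p = 0.269).

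In siR_Nostrill cells the same 5 members passed the test for IFN-γ, where 5.24% of all genes were called higher. The siR_Nostrill libraries also entered the contrast that chose Ifit1. That choice favours high Ifit1 values in them, so the fold of Ifit1 here leans towards a smaller rise. Ifit1 had 5.83, 5.36 and 6.09 FPKM without IFN-γ and 28.63, 31.56 and 32.96 with it. It rose 5.31-fold (4.17 to 6.78, edgeR adjusted p = 1.09e-06). Ifit3 had 2.51, 2.47 and 2.51 FPKM without and 17.22, 22.37 and 22.87 with IFN-γ, a rise of 8.25-fold (6.13 to 11.1, edgeR adjusted p = 7.91e-07). Ifit3b rose 10.8-fold (7.17 to 16.2, edgeR adjusted p = 4.66e-06), from 0.54, 0.38 and 0.73 to 5.68, 6.1 and 6.41 FPKM. For all 3 genes each library with IFN-γ stood above each without it, again a description without the share over all genes.

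Ifit2 in siR_Nostrill cells had 5.87, 6.25 and 8.21 FPKM without IFN-γ and 13.8, 16.23 and 14.7 with it, a rise of 2.16-fold (1.72 to 2.71, edgeR adjusted p = 6.13e-04). Ifitm3 had 537.2, 479.55 and 423.13 FPKM without and 888.73, 884.02 and 898.9 with IFN-γ, and the 3 values with IFN-γ were close together. The rise of 1.82-fold (1.31 to 2.52) passed narrowly (edgeR adjusted p = 0.0329). It did not pass after leaving out siR_Nostrill replicate 2 or 3, any 1 of the 3 siR_Nostrill + IFN-γ libraries, or siR_Ctrl + IFN-γ replicate 1 (edgeR adjusted p from 0.0543 to 0.119), although its log2 fold change was 0.73 or more without each of them. Ifitm2 had 431.9, 398.81 and 350.65 FPKM without and 442.28, 407.3 and 430.33 with IFN-γ. Its groups overlapped and the ratio was 1.06 (0.803 to 1.4, edgeR adjusted p = 0.792).

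The 2 abundant IFITM transcripts are short, with an effective length of 425 nt for Ifitm2 and 412 nt for Ifitm3, against 1753 to 3713 nt for the IFIT members. Replicates of one group differed along gene length, with a Spearman correlation across genes between the deviation of log2 CPM (counts scaled by library total) and length from -0.765 to 0.798 in single libraries. The log2 fold changes also followed length, with a correlation of -0.437 for IFN-γ in siR_Ctrl cells and 0.492 in siR_Nostrill cells. For siR_Nostrill against siR_Ctrl it was 0.272 with and -0.669 without IFN-γ, and for the interaction 0.664. With this length trend removed from each library, IFN-γ raised Ifitm3 by 1.11 on the log2 scale in siR_Ctrl cells and 1.19 in siR_Nostrill cells (edgeR adjusted p = 1.73e-07 and 7.07e-08). Ifitm2 then passed the test in siR_Nostrill cells with a log2 fold change of 0.41 (edgeR adjusted p = 0.0061) and not in siR_Ctrl cells, at 0.17 (adjusted p = 0.297). The part of library preparation in this spread was not tested.

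In TPM, a unit that sums to nearly one total in each library, the SD of Ifitm2 was smaller than in FPKM in 3 of the 4 groups but not in siR_Nostrill + IFN-γ (427 ± 17.8 FPKM and 639 ± 38.6 TPM). Ifitm2 had 437.91, 468.01 and 463.4 TPM in siR_Ctrl cells and 557.47, 543.71 and 519.73 with IFN-γ. In siR_Nostrill cells it had 573.82, 508.32 and 514.75 TPM, and 683.43, 616.81 and 616.21 with IFN-γ. On this scale the libraries with IFN-γ were above those without for both siRNAs, while in FPKM they overlapped. How many of all genes separate in this way with IFN-γ was not computed.

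**Figure D3:**
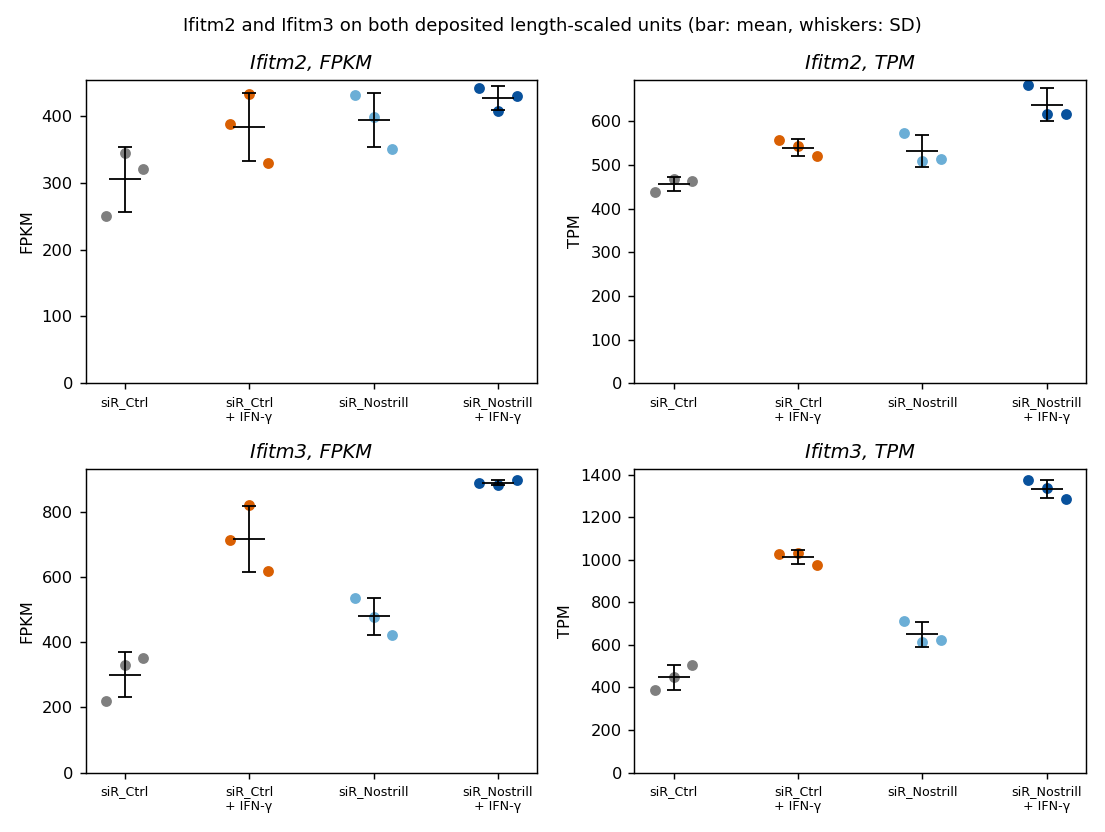
Ifitm2 (top) and Ifitm3 (bottom) in FPKM (left) and TPM (right) on axes from 0, with 3 libraries per condition as points, the mean as a bar and the SD as whiskers. Ifitm2 groups with and without IFN-γ overlap in FPKM and separate in TPM, and Ifitm3 separates in both.

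siR_Nostrill was next compared with siR_Ctrl among the 6 libraries with IFN-γ, none of which entered the contrast that chose the members. The members were still chosen with earlier results of these data known. The siR_Ctrl + IFN-γ and siR_Nostrill + IFN-γ libraries are shared with the comparisons above. No tested member passed in edgeR, where 0.185% of all genes were called higher. At an unadjusted p under 0.05 only Ifit1 of the 6 passed, and DESeq2 called 1 member, Ifit1. The 6 estimates were all above 0, with a median log2 fold change of 0.27, against -0.0026 over all genes, of which 49.4% were above 0.

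Ifit1 had 28.63, 31.56 and 32.96 FPKM in siR_Nostrill + IFN-γ cells and 16.98, 16.84 and 18.38 in siR_Ctrl + IFN-γ cells. The 3 siR_Nostrill libraries were above all 3 siR_Ctrl libraries, by 1.71-fold (1.36 to 2.15, unadjusted p = 2.9e-04, edgeR adjusted p = 0.0569). The adjusted value thus lay just past the threshold, and the call depended on the fit while the size did not. The log2 fold change stayed between 0.71 and 0.84 in each alternative. Ifit1 was called by DESeq2 (adjusted p = 4.93e-05), by limma on log2 FPKM (adjusted p from 0.0253 to 0.0419), with a mean of at least 5 CPM (edgeR adjusted p = 0.0474) and with the length trend removed (edgeR adjusted p = 0.00142). It was also called without siR_Ctrl replicate 1 or 3 (edgeR adjusted p = 0.0365 and 0.0283). These libraries are not in this comparison and bear on it through the shared spread, scaling, low-count filter and adjustment. Ifit1 was not called with only the 6 libraries compared (edgeR adjusted p = 0.126) or without a filter on low counts (edgeR adjusted p = 0.0667). Nor was it called when any 1 of the other 10 libraries was left out (edgeR adjusted p from 0.0622 to 0.2).

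The other members differed less. Ifit3 had 17.22, 22.37 and 22.87 FPKM against 13.88, 18.33 and 14.98, which overlapped, with a ratio of 1.26 (0.973 to 1.64, edgeR adjusted p = 0.398). Ifit3b had no overlap, at 5.68, 6.1 and 6.41 against 4.7, 5.15 and 4.46 FPKM, yet the ratio of 1.22 (0.882 to 1.68) did not pass (edgeR adjusted p = 0.589). Ifit2 overlapped, with a ratio of 1.1 (0.879 to 1.38, edgeR adjusted p = 0.727). These intervals leave room for a change of up to 1.38-fold in Ifit2 and 1.64-fold in Ifit3. Ifitm3 also had no overlap, with 884.02 as the lowest siR_Nostrill and 821.06 as the highest siR_Ctrl FPKM, at a ratio of 1.2 (0.869 to 1.66, edgeR adjusted p = 0.62). With the length trend removed, Ifitm3 was higher by 0.43 on the log2 scale and passed (edgeR adjusted p = 0.00563). For Ifitm2 the ratio was 1.07 (0.809 to 1.41, edgeR adjusted p = 0.859). In FPKM, 3 of the 6 tested members had no overlap in the higher direction, a state found in 14.6% of all genes tested. In TPM, Ifit3 and Ifitm2 did not overlap either, which made 5 of the 6, against 14.1% of all genes tested.

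The values without IFN-γ are those that chose the set and are described with no test. Ifit1 had 5.83, 5.36 and 6.09 FPKM in siR_Nostrill cells and 2.5, 2.25 and 3.87 in siR_Ctrl cells, a log2 fold change of 1.03. Ifit3 had 2.51, 2.47 and 2.51 against 2.07, 1.38 and 1.36 FPKM, a log2 fold change of 0.69. Ifit3b, with a log2 fold change of 1.12, overlapped between the groups, and its log2 fold change was 1.84 without siR_Ctrl replicate 3 and 0.31 by limma on log2(FPKM + 1). Ifit2 went the other way at -0.13 on the log2 scale, with overlapping values. Ifitm3 differed by 0.72 and Ifitm2 by 0.40 on the log2 scale, and with the length trend removed by 0.34 and 0.01. Over all genes 0.0756% were called higher in this contrast and 10.2% had higher values without overlap. In the same libraries Ifit2 made up 39.8% to 46.8% of the summed IFIT FPKM and Ifit1 34.7% to 39.5%, and the 2 genes overlapped in FPKM (6.78 ± 1.26 and 5.76 ± 0.37). With IFN-γ, Ifit1 was the leading IFIT transcript in siR_Nostrill cells, at 41.4% to 43.8% of the sum and without overlap with Ifit3.

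**Figure D4:**
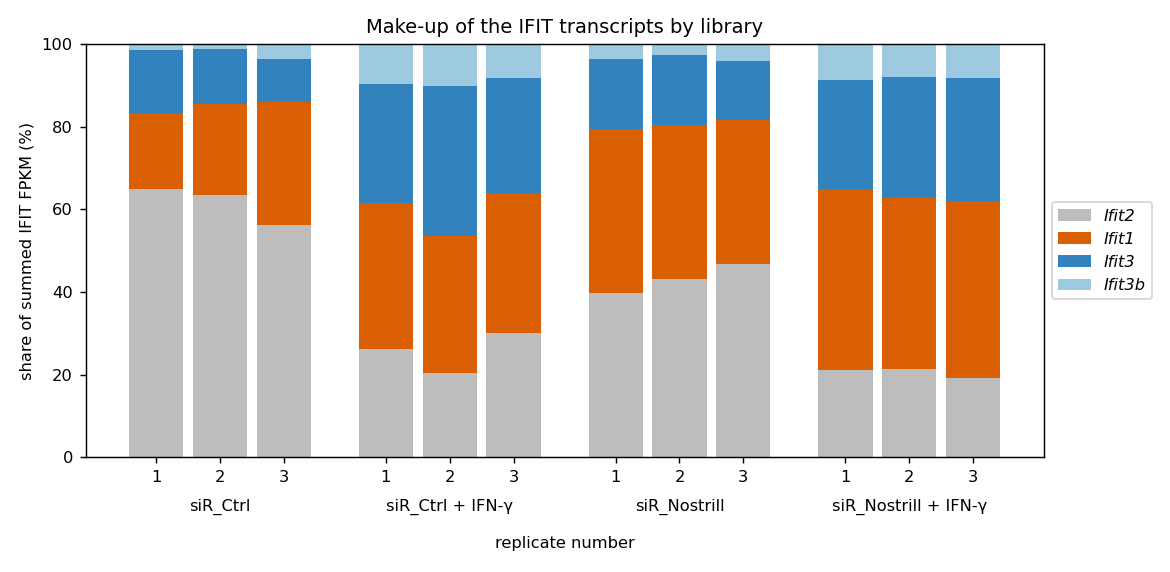
Share of the summed IFIT FPKM (vertical axis, %) taken by Ifit2, Ifit1, Ifit3 and Ifit3b in each of the 12 libraries, grouped by condition. Ifit2 takes 56.3% to 64.9% in siR_Ctrl cells and 19.1% to 30% in the 6 libraries with IFN-γ.

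The interaction asks whether the response to IFN-γ differed between siR_Nostrill and siR_Ctrl cells. It was tested for 5 members and passed for none in edgeR, where 0% of all genes were called, nor in DESeq2. At an unadjusted p under 0.05 none of the 5 passed in edgeR, and Ifit3b did in DESeq2 (unadjusted p = 0.048, adjusted p = 0.503). The estimate was -0.84 for Ifit3b (95% interval -1.81 to 0.13), -0.36 for Ifit3 (-0.96 to 0.25) and 0.27 for Ifit2 (-0.20 to 0.73) on the log2 scale. The estimate of Ifit3b varied with the processing, at -1.56 without siR_Ctrl replicate 3 (edgeR adjusted p = 0.412) and -0.01 by limma on log2(FPKM + 1) (adjusted p = 0.961). The interaction was -0.46 for Ifitm3 (-1.12 to 0.21) and -0.31 for Ifitm2 (-0.87 to 0.26), and these 2 turned to 0.08 and 0.24 with the length trend removed. For Ifit1 the value was -0.26, given as a description since the contrast holds the libraries that chose it. The interval of Ifit3b still includes a response smaller by 1 log2 unit in siR_Nostrill cells.

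**Figure D5:**
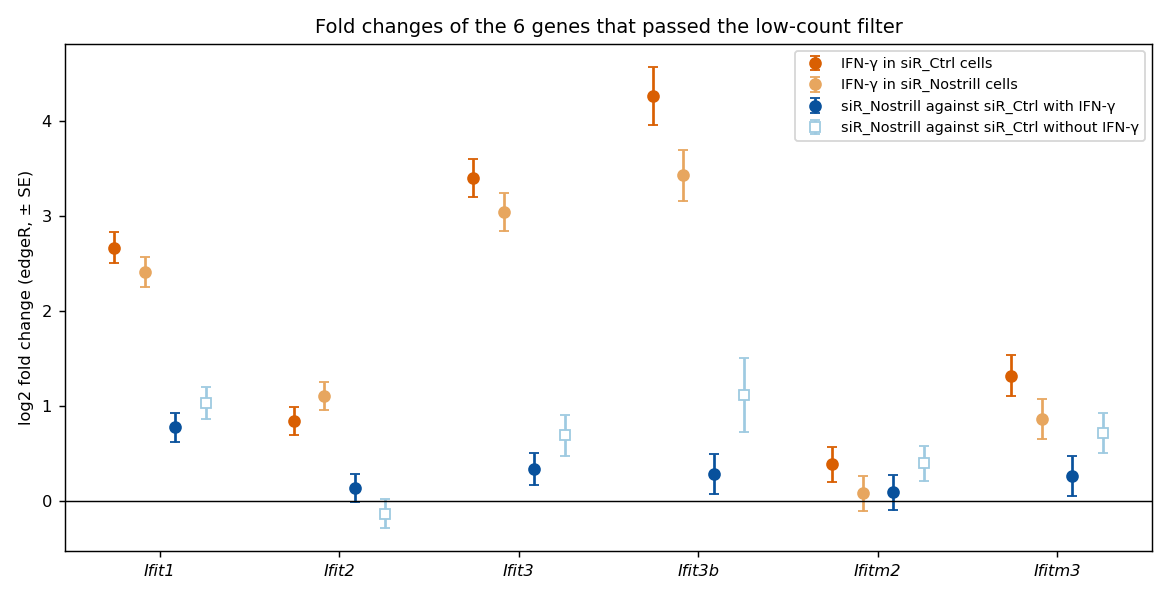
Log2 fold change in the edgeR fit (vertical axis, ± SE) of the 6 members that passed the filter on low counts, with filled circles for the 3 tested comparisons and open squares for siR_Nostrill against siR_Ctrl without IFN-γ, which chose the set. The IFN-γ values of Ifit1, Ifit3 and Ifit3b are the highest, between 2.41 and 4.27.

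Reads of the near copies could be split between genes. The deposited estimated counts of Ifit3 and of Ifit3b held a part of a read in all 12 libraries, while their sum was whole in all 12 within 0.015. Ifit3b took between 8.46% and 25.9% of the summed reads. The summed gene had 48 to 70 reads at rest in siR_Ctrl cells and 607 to 795 with IFN-γ, and it rose by 3.57 on the log2 scale (edgeR adjusted p = 8.51e-08). In siR_Nostrill cells the sum was 91 to 103 reads without and 735 to 942 with IFN-γ, a log2 fold change of 3.13 (edgeR adjusted p = 1.97e-07). The increase of the pair therefore does not rest on how reads were divided, while the separate folds of Ifit3 and Ifit3b are uncertain.

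Ifit1 shares its upstream region with Ifit1bl2, a related gene on the opposite strand. The start of Ifit1bl2 used for its window lies 146 bases away, and the 2 ISRE cores of Ifit1 also lie before that start. The RefSeq span of Ifit1bl2 reaches past that start, to 34640827. Ifit1bl2 had 1 read in the 3 siR_Ctrl libraries together and 31.08 with IFN-γ, and 7.03 and 35.01 in siR_Nostrill cells. It reached the low-count filter only through the groups with IFN-γ, so no test is given. Ifit1bl1, whose RefSeq span overlaps Ifit3b and Ifit1, had 5 reads without and 11 with IFN-γ after siR_Ctrl, and 5 and 14 after siR_Nostrill, too few to be tested. Whether strand was used in counting is not given by the sources, so reads of such overlapping genes may not be told apart.

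The rest of the pathway was read from lists of known interferon genes, chosen with earlier results of these data known. Over all genes, 4.71% were called higher with IFN-γ in siR_Ctrl cells and 5.24% in siR_Nostrill cells. Whether a listed gene reached the low-count filter only through the groups with IFN-γ was not checked, so the counts are a description. Of 14 tested interferon receptors and signal carriers, 6 rose with IFN-γ in siR_Ctrl cells and 7 in siR_Nostrill cells, and none fell. Among those that rose in siR_Ctrl cells, the log2 fold change was 3.57 for Irf1, 3.57 for Irf7 and 3.19 for Stat2. Among 27 other genes with ISGF3-type induction, 26 rose in siR_Ctrl cells (median log2 fold change 2.34) and 23 in siR_Nostrill cells (median 2.07), with Zbp1, a nucleic acid sensor, highest at 5.22 and 4.58. Of 18 listed genes with GAS or IRF1 control, 17 were tested, and all 17 rose in both, with medians of 5.32 and 4.83. The 4 IFIT members, with medians of 3.04 and 2.73, lay between these 2 lists, and the 2 tested IFITM members, at 0.85 and 0.47, below both.

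For siR_Nostrill against siR_Ctrl with IFN-γ, 1 gene of these lists passed, Ifngr2, a subunit of the IFN-γ receptor, with a log2 fold change of 0.54 (edgeR adjusted p = 0.0375). The 27 ISGF3-type genes had a median of 0.20 with 23 above 0, and the 17 genes with GAS or IRF1 control had a median of -0.03 with 8 above 0. Without IFN-γ, given as a description, the medians were 0.74 and 0.42. In that contrast Irf9, the DNA-binding part of ISGF3, differed by 0.58, Irf7 by 1.19, Oasl1 by 1.25 and Oasl2 by 1.10 on the log2 scale. Irf9, Oasl1 and Oasl2 were named because they were called in this same contrast, and Irf7 was named after its values were seen. Their values are thus a description of picked genes. Over all genes 26 were called in this contrast, and 0 to 37 when single libraries were left out.

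Genes close to the function of the members were also read from lists. Of 7 genes listed near IFIT function, most of them cap or translation factors, 2 rose with IFN-γ in both siRNA states. Over all genes, 4.71% were called higher in siR_Ctrl cells and 5.24% in siR_Nostrill cells. The 2 were Tmem173 (STING, an adaptor of DNA sensing) and Cmtr1, which methylates the first transcribed nucleotide of mRNA. Tmem173 rose by 1.10 in siR_Ctrl and 1.17 in siR_Nostrill cells, and Cmtr1 by 0.32 and 0.41 on the log2 scale (edgeR adjusted p from 1.6e-06 to 0.0495). None of 5 enzymes and partners of IFITM proteins passed in any tested comparison. Among them was Zmpste24, an IFITM cofactor, named here after its values were seen, at -0.23 and 0.19 for IFN-γ.

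The genes most like a member over the 12 libraries were listed by Pearson correlation of log2 CPM, as a description. The 12 points fall into groups with and without IFN-γ, so genes that rise with IFN-γ share high values. Closest to Ifit1 were Lgals3bp (0.994), Oasl2 (0.987) and Gsap (0.986). Closest to Ifit3 were Mndal (0.995), Tor3a (0.995) and Usp18 (0.994), the protease that removes ISG15. Closest to Ifitm3 were Tmem106a (0.989), Tcirg1 (0.988) and Isg15 (0.986), the ubiquitin-like interferon protein. Of these 3 genes each, 2 remained among the closest 3 to each member on the log2(FPKM + 1) scale. Within the set Ifit1 and Ifit3b had 0.982, Ifitm2 and Ifitm3 0.840, and Ifit2 and Ifitm2 0.171, the lowest.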

How the data were processed

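The authors deposited, per library, an estimated count of reads, an FPKM value and a TPM value for each of 15002 genes, made from reads that SOAPnuke had filtered and that HISAT2 and Bowtie2 had aligned (GRCm38.p6). The sources used here do not name the tool that counted reads. The deposited estimated counts, rounded to whole numbers, entered edgeR 4.0.16 in R 4.3.3 (quasi-likelihood test, TMM, default filter on low counts, 12 libraries in one fit, Benjamini-Hochberg adjustment over 11900 genes, threshold 0.05). The intervals use the degrees of freedom of that fit. The deposited FPKM and TPM values give levels. Alternatives were DESeq2 1.42.0, limma 3.58.1 on log2(FPKM + 1) and log2(FPKM + 0.1) for a mean of at least 0.5 FPKM or all genes, other filters and size factors, only the groups compared, a replicate block, Ifit3 and Ifit3b summed, the length trend removed (lowess, span 0.3) and each library left out. Correlations used log2 CPM with a prior count of 2.

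The genes named were the 7 members, the 3 genes most like Ifit1, Ifit3 and Ifitm3 and, per list, called genes among those with the largest changes, apart from an item not reported here. Members and lists were chosen with earlier results of these data known. The script was tested on simulated counts. Promoters are from RefSeq, and all 7 members matched. Protein sequences were not used here.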

Additional observations from a re-analysis of the deposited data

How the results depend on the processing

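The count of members called for IFN-γ stayed within 4 to 6 of those tested in every alternative for both siRNAs. For siR_Nostrill against siR_Ctrl with IFN-γ, 0 members were called, but 1 by DESeq2, with a mean of at least 5 CPM and in the 3 limma fits, and 2 with the length trend removed, and 0 to 1 when single libraries were left out. Leaving out single libraries took the Ifitm2 log2 fold change from -0.038 to 0.20 for IFN-γ in siR_Nostrill cells (below 0 without siR_Nostrill replicate 3) and from -0.035 to 0.25 for siR_Nostrill with IFN-γ (below 0 without siR_Ctrl + IFN-γ replicate 3). With the length trend removed, the interaction turned to 0.24 in Ifitm2 and 0.083 in Ifitm3, neither called, and the cause was not tested. The sample labels do not say whether replicate numbers pair the samples. Deviations of same-numbered libraries had correlations from -0.495 to 0.725, which cannot settle this, since the deviations also followed gene length. With the replicate block no call changed. It gave 5, 5, 0 and 0 members for IFN-γ in siR_Ctrl and siR_Nostrill cells, siR_Nostrill with IFN-γ and the interaction. Over all genes the number called was 649, 807 and 51 in the first 3 of these. Leaving out single libraries gave 489 to 589, 491 to 1138 and 0 to 72. The second was 491 without siR_Nostrill replicate 2 and 500 without siR_Nostrill + IFN-γ replicate 2, and the third was 23 or fewer without any of 10 libraries, all but replicate 1 of siR_Ctrl and of siR_Nostrill. It was 1330, 2218 and 1527 with the length trend removed, 341, 1997 and 0 with only the groups compared, and for the third 596 by DESeq2, 114 to 135 by limma, 105 with a mean of at least 5 CPM, 30 without a filter and 32 with the replicate block. By DESeq2 the second was 1330. Calls for IFN-γ in siR_Nostrill cells were 623 higher and 184 lower, and 1352 and 866 with the length trend removed. Depth limited Ifitm1, with at most 9 reads a library.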

Other observations

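Ifitm10, a family gene outside the set, did not follow the IFN-γ pattern. It had 1.33, 1.62 and 2.00 FPKM in siR_Ctrl cells and 1.48, 2.28 and 2.17 with IFN-γ, which overlapped (edgeR adjusted p = 0.573). In siR_Nostrill cells it had 3.23, 3.08 and 2.90 FPKM, and 2.76, 3.10 and 3.16 with IFN-γ. All 6 siR_Nostrill libraries were above all 6 siR_Ctrl libraries. The share of all genes with this separation was not computed. For 3 libraries above 3 in FPKM, it was 14.6% of all genes tested with IFN-γ and 10.2% without. With IFN-γ the log2 difference of siR_Nostrill from siR_Ctrl was 0.51 (SE 0.20), which did not pass (edgeR adjusted p = 0.278). Without IFN-γ the log2 difference was 0.93, given as a description. Ifitm5, the bone member of the family, had 0.47 to 1.66 FPKM in siR_Ctrl cells and 1.07 to 2.16 with IFN-γ. No tested comparison passed for it. Both were named after their values were seen.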
